A study of Mus musculus with 6 samples.

Results

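The cells described here are fibroblasts of mouse skin. They were chosen by the UMIs (unique molecular identifiers, each counting 1 captured mRNA molecule) of Has1, Ptx3, Pi16 and C3. A barcode entered a fibroblast gate when it had at least 300 genes, at most 15% mitochondrial UMIs, at least 1% of its UMIs from Col1a1, Col1a2, Col3a1 and Dcn, no UMI of Pecam1 or Cdh5, and under 0.5% from Krt5 and Krt14. A member was a cell of the gate with at least 3 UMIs of the 4 genes together, called the B sum here. That sum also had to exceed the UMIs of Lrrc15, Mmp11, Tmem119 and Pth1r and, separately, those of Wfdc12, Cpz, Rspo1 and Cyp26b1. The rule found 3980 members among 7591 cells of the gate, 25772 barcodes kept and 38206 barcodes in all.

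Single-cell libraries had been made with the 10x Chromium 3′ chemistry from digested skin of Balb/c mice. There were 3 libraries from OVA-sensitized mice (titled EC-OVA) and 3 from control mice (titled EC-SAL). Sensitization through the skin lasted 10 days, and the skin was taken 2 days afterwards. The labels call the tissue sensitized skin in both groups. They do not spell out OVA, which in such models usually stands for ovalbumin, or the agent given to controls. They give CD4 as the cell type, whereas the libraries hold cells of the whole skin, keratinocytes, endothelial cells and fibroblasts included. No label ties a library to an animal, so p-values measure only the spread between libraries, which may be technical.

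Members numbered 685, 785 and 703 in the 3 OVA-sensitized libraries, against 689, 595 and 523 in the 3 control libraries. Their summed UMIs per library were 4565123 to 5092360 after OVA and 2713225 to 3370921 in controls. The median member held 5968 to 6217 UMIs after OVA and 4393 to 4859 in controls, so OVA-sensitized members were deeper in every library. Their median mitochondrial share was 2.9 to 3.24% after OVA and 2.86 to 3.1% in controls. The 15 pairs of libraries shared 33 to 87 barcodes each, and 11 member barcodes were shared in all.

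Fibroblasts that express Pi16 and Dpt lie around vessels and in the deep dermis and fascia, and have been described as a reserve for more specialised fibroblasts. Has1 encodes a hyaluronan synthase of the plasma membrane. Ptx3 encodes a secreted pentraxin that binds complement components and, with the product of Tnfaip6, helps to build hyaluronan matrices. C3 encodes the central component of complement, and Pi16 a peptidase inhibitor.

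Has1, Ptx3 and Pi16, far more than C3, carried the selection. Has1 gave 35.5 ± 2.07% of the B sum after OVA and 41.1 ± 2.33% in controls (mean ± SD, n = 3 each, here and below). Ptx3 gave 44.2 ± 2.4% after OVA and 34 ± 2.62% in controls, Pi16 gave 15.3 ± 1.2% and 20.1 ± 2.48%, and C3 gave 4.93 ± 0.331% and 4.71 ± 0.656%. The cells are therefore called Has1, Ptx3 and Pi16 fibroblasts, or members. The name gives the genes that chose them and not their place in the skin. A Has1 UMI was found in 85.1 ± 1.3% of members after OVA and 85 ± 3.38% in controls. In keratinocyte-gated cells, at a median of 6974 to 7715 UMIs after OVA and 6986 to 7383 in controls, it was found in 12 ± 1.38% and 11.5 ± 1.002%. C3 was found in 35.6 ± 1.71% of members after OVA and 31.8 ± 1.3% in controls, and in 2.35 ± 0.125% and 1.67 ± 0.696% of keratinocyte-gated cells. These values chose the members and are a description.

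The marker genes Dpt, Cxcl12 and Mfap5, which the rule did not use, were higher in members than in the pooled other cells of the gate. As means over the 6 libraries, the dermal matrix gene Dpt was at 673 and 222 counts per 1000000 UMIs (CPM) in members and in the rest. The chemokine gene Cxcl12 was at 529 and 117 CPM and the microfibril gene Mfap5 at 633 and 338 CPM. Lpl (lipoprotein lipase) at 205 and 45.2 CPM and Ccl19 (a chemokine for lymphocytes and dendritic cells) at 231 and 56.4 CPM also led the profile. The contractile genes Acta2, at 95.9 and 566 CPM, and Tagln, at 22 and 139 CPM, and the Wnt inhibitor gene Wif1, at 325 and 1085 CPM, were lower in members than in the rest. Not all of this held against each class of the gate. Mfap5 was at 633, 660.4 and 268 CPM in members, in the fibroblasts led by Lrrc15 and Mmp11 and in those led by Wfdc12, Cpz and Rspo1. In the same order Acta2 was at 95.9, 1759 and 43.5 CPM, Tagln at 22, 412 and 12.9 CPM and Wif1 at 325, 231 and 678 CPM, so one of the classes was lower than members for each of these 3 genes. The profile has no test, since the members were chosen on these cells.

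The gene with the most UMIs in a cell marked different profiles among the members. Has1 led in 44.2 ± 3.09% of members after OVA and 50.1 ± 2.68% in controls. Ptx3 led in 34.3 ± 1.77% after OVA and 24.2 ± 1.1% in controls, Pi16 in 14.5 ± 0.626% and 19 ± 1.49%, and C3 in 3.48 ± 0.481% and 3.93 ± 0.357%. Pi16-led cells held Coch, the gene of cochlin, at 8532 CPM, against 137 CPM in Has1-led and 34.2 CPM in Ptx3-led cells. The proteoglycan gene Fmod was at 1607, 319 and 220.1 CPM in Pi16-led, Has1-led and Ptx3-led cells, and Crabp1, of a retinoic acid binding protein, at 1114, 78.5 and 102 CPM. Kera was at 168, 8.97 and 8.36 CPM in the same order. Dpt was at 513 CPM after OVA and 655 CPM in controls in Pi16-led cells. It was at 585 and 666 CPM in Has1-led and 668 and 821 CPM in Ptx3-led cells, so Pi16-led cells did not hold more of it. Ptx3-led cells were higher in Il1rl1, which encodes the interleukin-33 receptor ST2, at 239 CPM, against 114 CPM in Has1-led and 39.3 CPM in Pi16-led cells. Has1-led cells were higher in Chad, of the cartilage protein chondroadherin, at 339 CPM, against 94.1 CPM in Ptx3-led and 123 CPM in Pi16-led cells. Cytl1, listed with Chad as a marker of chondrocytes and perichondrium, was at 620, 226 and 111 CPM in the same order. All members held Cytl1 at 421 CPM, against 1524 CPM in the rest of the gate. Has1-led cells were also higher in Atf3, one of the genes raised by tissue dissociation given below. It was at 642 CPM, against 330 CPM in Ptx3-led and 336 CPM in Pi16-led cells. Gadd45b was at 922, 460 and 567 CPM in the same order, and Nr4a2 at 579, 376 and 260 CPM. At the threshold, 192 members had a B sum of 3 and 253 cells just outside had 2, and Dpt was at 262 and 199.8 CPM in these pools.

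Members made up 57.5, 56.5 and 58.1% of the gate in the OVA-sensitized libraries, against 48.7, 49 and 44.7% in the control libraries. The groups did not overlap, with means of 57.4 ± 0.801% and 47.4 ± 2.41%, and exact 95% binomial intervals of single libraries between 53.9 and 60.9% after OVA and 41.8 and 51.8% in controls (counting error only). With every cell of the gate thinned to 2000 UMIs the share was 47.8 to 48.9% after OVA and 39.7 to 42.2% in controls, after leaving out 116 to 175 and 148 to 172 shallower cells per library. Of all barcodes kept, members were 18.9 ± 0.997% after OVA and 12.6 ± 0.502% in controls. The share rests on the B genes themselves, so it was not tested.

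Over the whole gate, whose cells were not chosen by the B genes, Ptx3 rose. It was at 1199, 1341 and 1334 CPM after OVA, against 822, 909 and 799.9 CPM in controls. Its log2 fold change was 0.64 ± 0.08 (SE, edgeR quasi-likelihood test with Benjamini-Hochberg adjustment, adjusted p = 0.00089). Over the gate 10.4% of 12079 tested genes passed the threshold of 0.05, 5.82% higher after OVA and 4.62% lower. C3 was at 149.8 ± 6.07 CPM after OVA and 129 ± 8.33 CPM in controls and was not called (edgeR adjusted p = 0.0629). Has1 was at 1088 ± 77.7 CPM after OVA and 1101 ± 155 CPM in controls (edgeR adjusted p = 0.975), and Pi16 at 460.1 ± 22.7 and 523 ± 86.5 CPM (edgeR adjusted p = 0.337). After thinning to 2000 UMIs, a Ptx3 UMI was found in 33.7 to 35.6% of the gate after OVA and 21.1 to 23.6% in controls. In summed counts, fewer cells of a kind and less RNA per cell cannot be told apart.

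**Figure D1:**
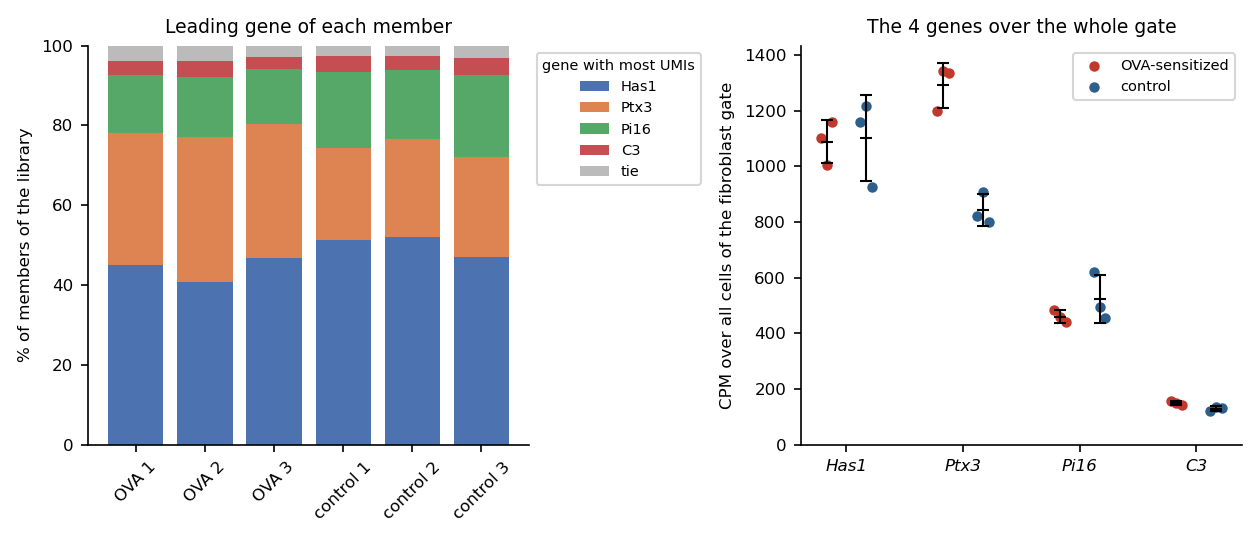
Left, bars give the percent of members of each library led by Has1, Ptx3, Pi16, C3 or a tie. Right, points give the CPM of each gene over all cells of the fibroblast gate by library, with mean and SD (n = 3). Ptx3 is the gene whose change passed the test.

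Within members, 10849 genes could be tested for OVA-sensitized against control libraries, and 533 (4.91%) were called at an adjusted p under 0.05. Of these, 321 (2.96%) were higher after OVA and 212 (1.95%) lower, and the median log2 fold change of all tested genes was 0.01. Counts by gene list below are to be read beside these shares. No list was tested as a set, and small counts say little about a list. Neutrophil chemokine, activin, collagen and matrix genes were among those called higher. Immediate early genes and genes of the adventitial programme were among those called lower. DESeq2 called 317 genes, of which 304 were also called by edgeR. Without 1 library, edgeR called 162 to 324 genes higher and 86 to 219 lower, fewest without control library 1, and 187 of the 533 genes were called in all 6 of these fits. Of the 88 called genes named below, 72 were called in all 6, and the others are given with the number of fits that called them. Values in brackets after CPM are log2 fold changes ± SE, OVA-sensitized over control.

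Chemokine genes were among the largest rises. Cxcl5, which encodes a ligand of the neutrophil receptor CXCR2 (chr5:90759360-90761624, mm10), was at 481, 396 and 542 CPM after OVA, against 39.2, 11.8 and 75.2 CPM in controls. All 3 OVA-sensitized libraries lay far above the highest control library, with a log2 fold change of 3.53 ± 0.38 (edgeR adjusted p = 0.000495), or 4.21 without control library 3. A Cxcl5 UMI was found in 13.5 ± 0.867% of members after OVA and 1.96 ± 0.376% in controls. Members were deeper after OVA, which raises such shares, and cells were not thinned for this gene. Keratinocyte-gated cells held it at 3.42 CPM after OVA and 0.415 CPM in controls. The rise was not confined to members. The rest of the gate held Cxcl5 at 77 CPM after OVA and 3.88 CPM in controls. In the Lrrc15 and Mmp11 fibroblasts it was at 169.7 and 0.806 CPM, and in the Wfdc12, Cpz and Rspo1 fibroblasts at 5.97 and 1.49 CPM. Cxcl3, of another CXCR2 ligand (chr5:90786103-90789600), was at 33.7, 23.2 and 31.2 CPM after OVA, against 1.48, 0 and 4.05 CPM in controls. Control members held 16 UMIs of it in all, against 424 after OVA, and the log2 fold change was 4.06 ± 0.41 (edgeR adjusted p = 0.000387). Control library 3 held 11 of these 16, and the log2 fold change was 5.21 without it and 3.47 without control library 2, called in all 6 fits without 1 library. The Cxcl3 UMIs after OVA came from 24, 27 and 22 members. The single richest cell gave 25.3, 24.6 and 15.1% of those of its library. Leukocyte-gated cells held Cxcl3 at 17.7 CPM after OVA and 14.4 CPM in controls.

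Cxcl2 (chr5:90903871-90905938), of a further CXCR2 ligand, was abundant in controls and rose less. It was at 1449, 1562 and 1529.7 CPM after OVA, against 1018, 992 and 1154 CPM in controls, with a log2 fold change of 0.54 ± 0.08 (edgeR adjusted p = 0.00344). Cxcl1 (chr5:90891241-90893115), the most abundant of these ligand genes, was at 5449, 5726 and 6056 CPM after OVA, against 6024, 5781 and 5568 CPM in controls. Its groups overlapped, and the log2 fold change was 0.00 ± 0.06 (edgeR adjusted p = 0.987). Cxcl1, Cxcl2 and Cxcl3 are close copies, and the effect of this on their counts was not tested.

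The promoters of these neighbouring copies are shown because their genes responded unequally (250 bases before to 50 after the start, RefSeq, GRCm38.p6, plus strand). Capitals mark matches on either strand to GGG, any 2 bases and TTTCC, a short form of the NF-kB motif.
Cxcl3 (chr5:90785851-90786150): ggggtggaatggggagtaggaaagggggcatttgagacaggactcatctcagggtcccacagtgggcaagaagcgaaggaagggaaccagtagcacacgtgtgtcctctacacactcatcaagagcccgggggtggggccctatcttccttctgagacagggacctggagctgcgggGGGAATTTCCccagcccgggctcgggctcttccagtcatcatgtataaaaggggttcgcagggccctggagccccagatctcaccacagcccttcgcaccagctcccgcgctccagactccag
Cxcl2 (chr5:90903649-90903948): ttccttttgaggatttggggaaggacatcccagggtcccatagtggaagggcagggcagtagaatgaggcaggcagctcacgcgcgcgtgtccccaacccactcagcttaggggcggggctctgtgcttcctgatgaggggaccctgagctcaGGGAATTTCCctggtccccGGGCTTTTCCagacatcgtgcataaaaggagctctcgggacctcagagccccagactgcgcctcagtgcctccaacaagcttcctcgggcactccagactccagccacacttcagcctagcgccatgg
Cxcl1 (chr5:90890995-90891294): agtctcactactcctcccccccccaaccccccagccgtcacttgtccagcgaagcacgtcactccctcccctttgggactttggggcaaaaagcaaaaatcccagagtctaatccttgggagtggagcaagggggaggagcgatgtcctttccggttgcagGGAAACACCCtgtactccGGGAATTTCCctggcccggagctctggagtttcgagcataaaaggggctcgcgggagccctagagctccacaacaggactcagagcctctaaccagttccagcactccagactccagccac
The Cxcl3 window held 1 match, the Cxcl2 window 2 and the Cxcl1 window 2, with no overlap between matches. The motif was found in 535 of 32851 promoters of this length, or 1.63%. A match is a description of letters and not of binding, and 3 of the 4 genes looked for matched the table, Cxcl5 being the other.

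Of 25 chemokine genes tested, 7 were called higher and 0 lower, with a median log2 fold change of 0.31. Ccl11, of the eosinophil chemokine eotaxin (chr11:82057823-82062955), was at 179, 162 and 217 CPM after OVA, against 109, 115 and 129 CPM in controls (0.67 ± 0.10, edgeR adjusted p = 0.00455). Ccl8, of another CC chemokine, was at 297, 425 and 289 CPM after OVA, against 145, 118 and 168 CPM in controls (1.25 ± 0.17, edgeR adjusted p = 0.00211). The level of Ccl8 in members was 0.0897 times its level in the class where it was highest among keratinocyte-, endothelial- and leukocyte-gated cells. Cxcl9, of an interferon-induced ligand of CXCR3, was at 15.1, 9.43 and 38.2 CPM after OVA, against 1.48, 0.319 and 1.47 CPM in controls (4.24 ± 0.72, edgeR adjusted p = 0.00726). It was called in 5 of 6 fits without 1 library, with an adjusted p of 0.0505 without control library 2, and its log2 fold change was 3.47 without OVA-sensitized library 3. The Cxcl9 UMIs after OVA came from 12, 16 and 11 members. The single richest cell gave 56.5, 20.8 and 40.9% of those of its library. Endothelial-gated cells held Cxcl9 at 16.7 CPM after OVA and 10.1 CPM in controls. Cxcl12 was at 532 ± 31.7 CPM after OVA and 527 ± 57.9 CPM in controls (edgeR adjusted p = 0.904) and Ccl2, of a monocyte chemokine, at 6648 ± 732 CPM after OVA and 5772 ± 274 CPM in controls (edgeR adjusted p = 0.147), and neither was called.

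**Figure D2:**
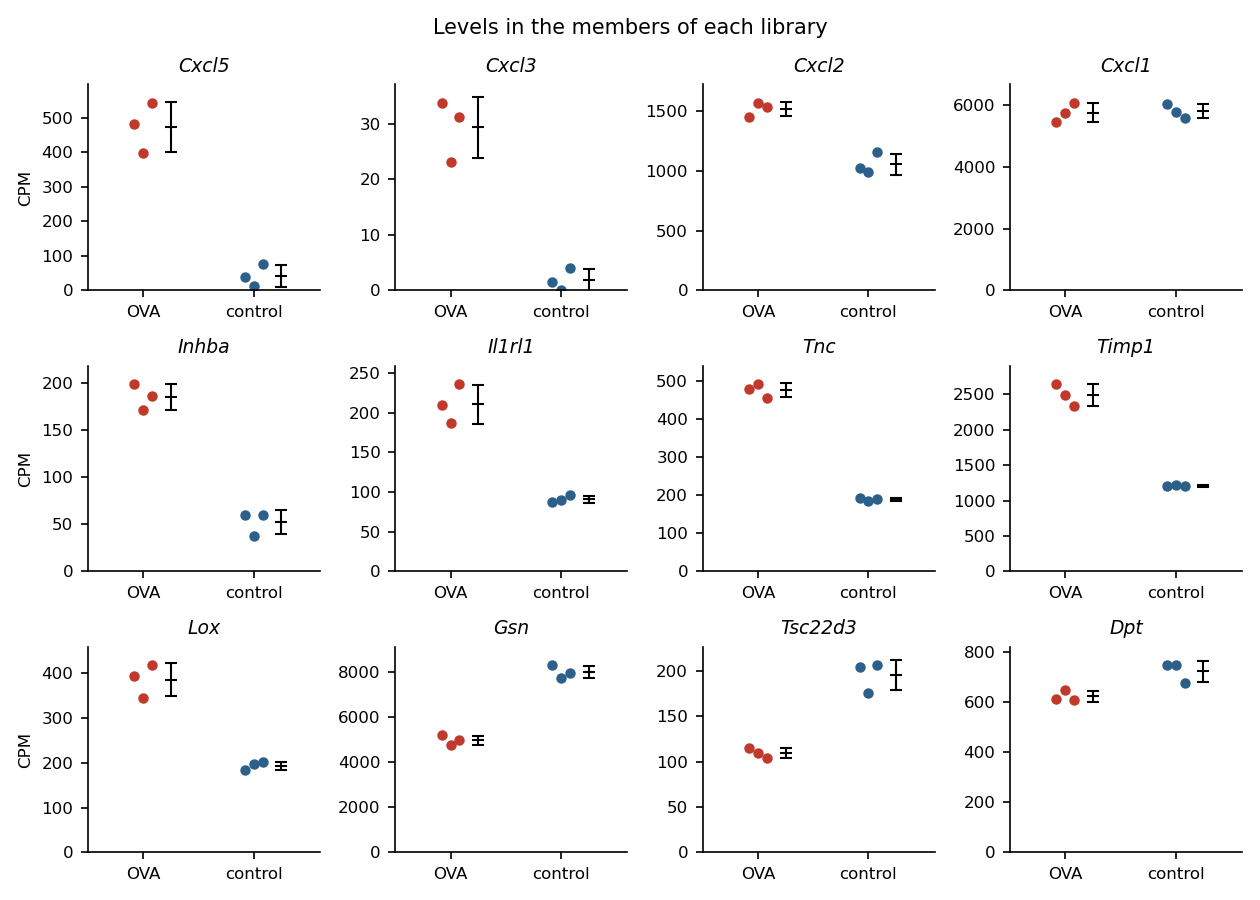
Points give the CPM of 12 genes in the members of each library, OVA-sensitized left and control right in each panel, with mean and SD (n = 3). Cxcl5, Cxcl3, Cxcl2, Inhba, Il1rl1, Tnc, Timp1 and Lox are higher after OVA, Gsn and Tsc22d3 are lower, and Cxcl1 overlaps between groups.

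Inhba, of the activin beta A subunit (chr13:16011851-16031621), rose in members. It was at 199, 171 and 187 CPM after OVA, against 60.2, 38 and 60.1 CPM in controls, and every OVA-sensitized library was above every control library (1.83 ± 0.13, edgeR adjusted p = 3.96e-05). Fst, of the activin antagonist follistatin, was at 496 ± 55.5 CPM after OVA and 354 ± 15.4 CPM in controls (0.50 ± 0.08, edgeR adjusted p = 0.00512). Of 36 TGF-beta, activin and BMP genes 7 were called higher and 2 lower, with a median log2 fold change of -0.06. Ltbp2 rose by 0.85 ± 0.13 and Bmp1 by 0.59 ± 0.07, whereas Ltbp4, of a protein that stores latent TGF-beta, fell by 0.63 ± 0.10 on the log2 scale.

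Of 40 cytokine and growth factor genes 8 were called higher and 0 lower (median 0.17). Il11, of an interleukin-6 family cytokine made by stromal cells, was at 94.6, 76.8 and 85.2 CPM after OVA, against 45.4, 44.7 and 50.5 CPM in controls (0.88 ± 0.09, edgeR adjusted p = 0.000411). Angptl4, of a secreted inhibitor of lipoprotein lipase, was at 57.8, 48.1 and 66.7 CPM after OVA, against 26.7, 17.6 and 8.48 CPM in controls (1.68 ± 0.24, edgeR adjusted p = 0.00289). Fgf7, of a growth factor for keratinocytes, rose by 0.68 ± 0.08 and Mdk (midkine) by 0.74 ± 0.09. Il33, of the alarmin that binds ST2, was at 44.9 ± 5.36 CPM after OVA and 27 ± 8.55 CPM in controls (0.77 ± 0.19, edgeR adjusted p = 0.0423), and was called in 1 of 6 fits without 1 library (adjusted p up to 0.119). Il6 was at 458 ± 85.8 CPM after OVA and 404 ± 58.1 CPM in controls and was not called (edgeR adjusted p = 0.505), nor was Igf1, of a growth factor, at 466 ± 9.04 CPM after OVA and 415 ± 29.95 CPM in controls (edgeR adjusted p = 0.173).

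Il1rl1, of the interleukin-33 receptor ST2 (chr1:40429570-40465415), was at 209.9, 187 and 236 CPM after OVA, against 86.9, 89.7 and 95.8 CPM in controls. The groups were well apart (1.23 ± 0.09, edgeR adjusted p = 3.28e-05), and a UMI of it was found in 27.2 ± 2.21% of members after OVA and 13.4 ± 0.724% in controls. Greater depth after OVA raises such shares, and cells were not thinned for Il1rl1. Gene counts do not separate the membrane form of ST2 from the soluble one. Of 35 cytokine receptor genes 3 were called higher and 2 lower (median 0.12), and Il6ra fell by 0.56 ± 0.10 on the log2 scale. Over all tested genes 2.96% were called higher and 1.95% lower, so these counts say little about the receptor list. Il4ra, of a shared chain of the interleukin-4 and interleukin-13 receptors, was at 33.3 ± 3.5 CPM after OVA and 26.4 ± 0.857 CPM in controls (edgeR adjusted p = 0.102), and Il13ra1 at 61 ± 6.2 CPM after OVA and 56.5 ± 3.53 CPM in controls (edgeR adjusted p = 0.521), and neither was called. Of 22 genes of these receptors and of the response to them 7 were called higher and 0 lower (median 0.24). They included Il1rl1, Ccl8, Ccl11, Tnc, Postn and Vcam1, which other lists hold as well.

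Of 18 complement genes other than C3, 3 were called higher and 1 lower (median 0.17). C4b, of a classical pathway component, was at 51.5, 45.8 and 49.5 CPM after OVA, against 24.6, 27.8 and 26.9 CPM in controls (0.90 ± 0.09, edgeR adjusted p = 0.000427), and C1qtnf6 rose by 0.46 ± 0.08. Serping1, of the C1 inhibitor, was at 1065 ± 31.9 CPM after OVA and 1277 ± 33.7 CPM in controls (-0.25 ± 0.06, edgeR adjusted p = 0.0382) and was called in 1 of 6 fits without 1 library (adjusted p up to 0.135). Cfb, of factor B of the alternative pathway, was at 279 ± 35.4 CPM after OVA and 243 ± 12.8 CPM in controls (edgeR adjusted p = 0.193) and was not called. Of 33 acute phase and NF-kB target genes 5 were called higher and 1 lower (median 0.02). Ptgs2, of the inducible cyclooxygenase, was at 149, 153 and 155 CPM after OVA, against 78, 91 and 69.3 CPM in controls (0.95 ± 0.10, edgeR adjusted p = 0.000392). Saa3, of a serum amyloid A protein, was at 176, 86.8 and 68.2 CPM after OVA, against 48.9, 44.7 and 20.6 CPM in controls (1.52 ± 0.34, edgeR adjusted p = 0.0298), and was called in 2 of 6 fits (adjusted p up to 0.104). The Saa3 UMIs after OVA came from 31, 24 and 26 members. The single richest cell gave 41.6, 52.7 and 42.8% of those of its library. Vcam1, of an adhesion molecule for leukocytes, rose by 0.49 ± 0.09 (3 of 6 fits), and Cebpd, of a transcription factor, fell by 0.28 ± 0.06 on the log2 scale (2 of 6 fits).

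Of 36 MHC and interferon-gamma response genes 11 were called higher and 1 lower (median 0.35). All 3 genes of the inducible proteasome subunits rose. Psmb9 was at 29.1, 24.2 and 26.3 CPM after OVA, against 9.79, 13.1 and 13.6 CPM in controls (1.14 ± 0.15, edgeR adjusted p = 0.00164), and Psmb8 and Psmb10 rose by 0.60 ± 0.09 and 0.62 ± 0.09. Igtp, of an interferon-inducible GTPase, was at 25.8 ± 2.05 CPM after OVA and 10.8 ± 3.21 CPM in controls (1.25 ± 0.18, edgeR adjusted p = 0.00289). In members Psmb9, Psmb8, Psmb10 and Igtp were at 0.131, 0.177, 0.442 and 0.277 times their highest level among keratinocyte-, endothelial- and leukocyte-gated cells. The part of RNA from those classes in these rises was not tested. Of 29 type I interferon-stimulated genes 5 were called higher and 2 lower (median 0.02), with Lgals3bp higher by 0.69 ± 0.10, Bst2 by 0.63 ± 0.13 (4 of 6 fits) and Ly6e by 0.41 ± 0.09 (2 of 6 fits). Summed over 10 leukocyte markers, members held 58.5 to 71.1 CPM after OVA and 19.5 to 49.2 CPM in controls, none of the 10 being at 0 and Srgn being the highest. With cells that held leukocyte UMIs left out, 304 genes were called higher and 183 lower over the whole table.

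Most collagen genes rose. Of 23 tested, leaving out those the gate used, 16 were called higher and 0 lower, and the median log2 fold change was 0.47. Col12a1, of a collagen on fibril surfaces (chr9:79598991-79718831), was at 196, 176 and 199 CPM after OVA, against 70.6, 61.3 and 77.4 CPM in controls (1.46 ± 0.09, edgeR adjusted p = 1.18e-05). Col5a2 rose by 0.77 ± 0.07, Col6a2 by 0.76 ± 0.06 and Col11a1 by 0.69 ± 0.08. Col7a1, of the anchoring fibril collagen, rose by 0.67 ± 0.13 and was called in 4 of 6 fits without 1 library, not without control library 1 or 2 (adjusted p up to 0.0793).

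Of 59 matrix glycoprotein and proteoglycan genes 17 were called higher and 4 lower (median 0.11). Tnc, of the matricellular protein tenascin-C (chr4:63959785-64047015), was at 480.4, 493 and 457 CPM after OVA, against 193, 185 and 192 CPM in controls. The libraries of each group lay close together (1.34 ± 0.07, edgeR adjusted p = 6.92e-06). Its relative Tnn (chr1:160085029-160153580) was at 29.6, 22.6 and 28.5 CPM after OVA, against 4.15, 4.79 and 3.32 CPM in controls (2.71 ± 0.19, edgeR adjusted p = 2.8e-05). Tnn was higher outside the members, at 47.5 CPM after OVA and 6.79 CPM in controls in the rest of the gate. In the Lrrc15 and Mmp11 fibroblasts it was at 87.8 and 9.37 CPM. Postn, of periostin, which interleukin-13 induces in stromal cells, was at 3097, 2937 and 3229.6 CPM after OVA, against 2107, 2129 and 2284 CPM in controls (0.52 ± 0.06, edgeR adjusted p = 0.000953). Among elastic fibre genes Eln was at 536, 546 and 465 CPM after OVA, against 272, 276 and 249 CPM in controls (0.97 ± 0.09, edgeR adjusted p = 0.000129), Fbn2 at 51.2 ± 7.92 CPM after OVA and 25.8 ± 3.63 CPM in controls, and Emilin1 rose by 0.71 ± 0.10. Cthrc1, of a secreted protein of injured tissue, was at 409 ± 51.8 CPM after OVA and 253 ± 31.1 CPM in controls (0.71 ± 0.09), and Prg4, of lubricin, rose by 0.93 ± 0.16. Spp1, of osteopontin, was at 109 ± 10.7 CPM after OVA and 42.7 ± 10.6 CPM in controls (1.37 ± 0.15).

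Of 27 genes of collagen processing and crosslinking 7 were called higher and 1 lower (median 0.24). Lox, of lysyl oxidase, was at 394, 345 and 417 CPM after OVA, against 183, 196 and 200.5 CPM in controls (1.01 ± 0.08, edgeR adjusted p = 4.22e-05), and Loxl1 rose by 0.43 ± 0.07. The gene called lower was Pcolce2, of an enhancer of procollagen cleavage, which fell by 0.51 ± 0.08 on the log2 scale. Of 40 protease and inhibitor genes 10 were called higher and 0 lower (median 0.13). Timp1, of an inhibitor of matrix metalloproteases (chrX:20870166-20874735), was at 2639.8, 2484 and 2335 CPM after OVA, against 1200.3, 1221 and 1198 CPM in controls, and a UMI of it was found in 82.5 ± 2.13% of members after OVA and 66.9 ± 4.47% in controls. Its groups were well apart in CPM (1.06 ± 0.07, edgeR adjusted p = 1.43e-05). The shares of members with a Timp1 UMI also rise with depth, which was greater after OVA. Serpina3n rose by 1.12 ± 0.16, Mmp23 by 0.47 ± 0.07, Adamts4 by 0.41 ± 0.07 and Mmp14 by 0.33 ± 0.07 (3 of 6 fits without 1 library).

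Of 14 hyaluronan genes other than Has1 and Ptx3, 4 were called higher and 1 lower (median 0.29). Has2, of another hyaluronan synthase, was at 26.7, 34.8 and 25.7 CPM after OVA, against 16.6, 18.8 and 19.5 CPM in controls (0.69 ± 0.16, edgeR adjusted p = 0.036), and was called in 1 of 6 fits without 1 library (adjusted p up to 0.156). Vcan, of a proteoglycan that binds hyaluronan, rose by 0.45 ± 0.08. Tnfaip6 was at 5859 ± 376 CPM after OVA and 5831 ± 125 CPM in controls and was not called (edgeR adjusted p = 0.896). Of 26 contractile and TGF-beta response genes 9 were called higher and 0 lower (median 0.36), including Cdh11, of an adhesion protein of mesenchymal cells, at 0.67 ± 0.10 and Lrrc17 at 0.65 ± 0.08. Acta2, of smooth muscle actin, was uneven between OVA-sensitized libraries, at 177, 69.7 and 141 CPM after OVA, against 66.7, 64.5 and 56.4 CPM in controls (1.04 ± 0.25, edgeR adjusted p = 0.0366), and was called in 1 of 6 fits (adjusted p up to 0.133). Of 33 Wnt pathway genes 2 were called higher and 1 lower (median -0.04), with Sfrp1, of a secreted Wnt inhibitor, higher by 1.14 ± 0.17. Over all tested genes 2.96% were called higher and 1.95% lower, so these few calls say little about Wnt genes as a list.

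**Figure D3:**
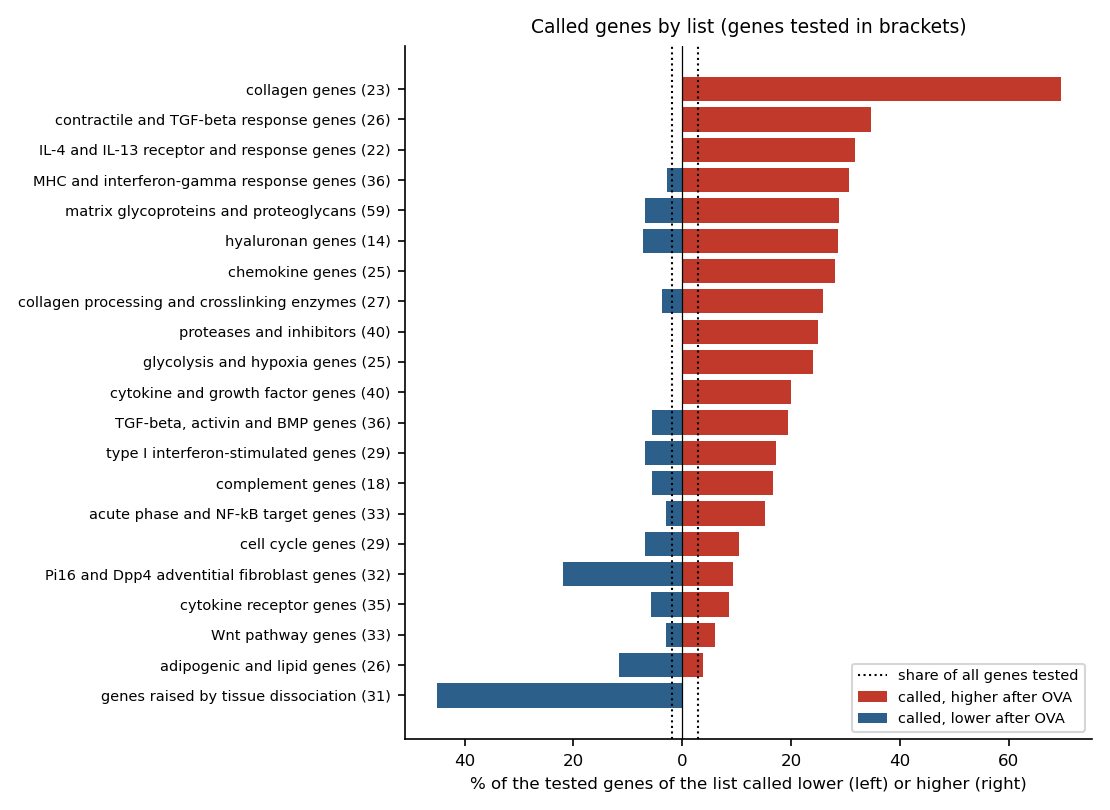
Bars give, for each gene list, the percent of its tested genes called lower (left) or higher (right) in OVA-sensitized than in control members, and dotted lines give these shares over all genes tested (1.95 and 2.96%). Collagen genes (16 of 23 higher) and genes raised by tissue dissociation (14 of 31 lower) lie far from the dotted lines. The lists were chosen with earlier results of these data known, so their distance from the lines is a description and was not tested.

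Of 25 glycolysis and hypoxia genes 6 were called higher and 0 lower (median 0.26). Hk2, of a hexokinase, rose by 0.62 ± 0.08, Hif1a, of a hypoxia transcription factor, by 0.51 ± 0.07 and Ndrg1 by 0.47 ± 0.07. Emb, of a chaperone of lactate transporters, was at 273, 231 and 262 CPM after OVA, against 127, 107 and 95.5 CPM in controls (1.23 ± 0.09, edgeR adjusted p = 4.16e-05). Ddah1 and Lmcd1 were also among the largest rises, at 1.27 ± 0.12 and 1.15 ± 0.13. Msmp was at 60.02, 89.2 and 109.7 CPM after OVA, against 15.1, 45.7 and 21.4 CPM in controls (1.67 ± 0.32, edgeR adjusted p = 0.0142), and was called in 3 of 6 fits without 1 library (adjusted p up to 0.0704), with a log2 fold change of 2.28 without control library 2.

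**Figure D4:**
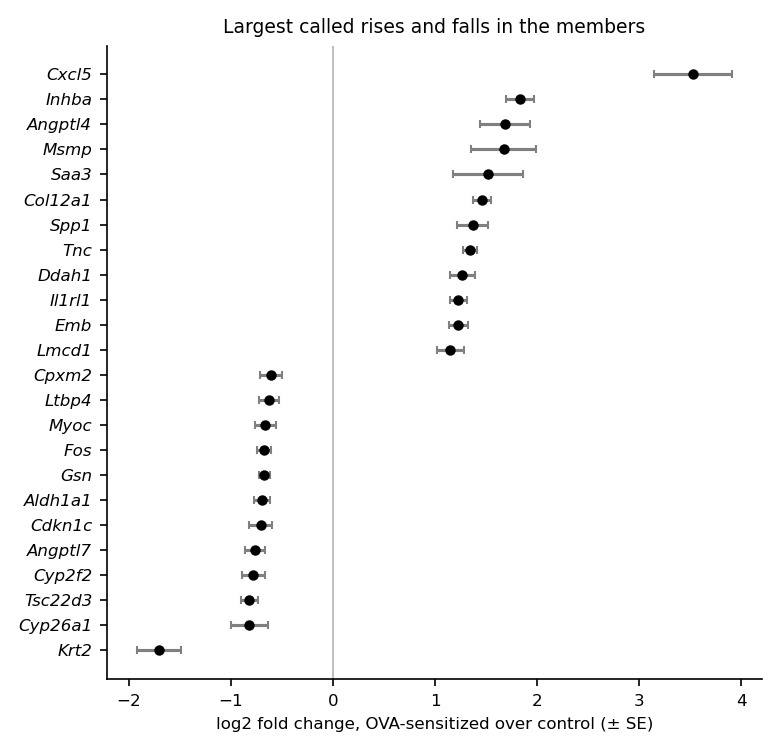
Points give the log2 fold change of OVA-sensitized over control members with its standard error, for the 12 largest called rises and 12 largest called falls among genes above a minimum level. Cxcl5 is at 3.53 and Krt2 at -1.71.

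Of 32 genes of the Pi16 and Dpp4 adventitial programme 3 were called higher and 7 lower, with a median log2 fold change of -0.12. Igfbp6, of a binding protein for insulin-like growth factors, was at 808, 789 and 832 CPM after OVA, against 1173, 1089.6 and 1128 CPM in controls (-0.47 ± 0.06, edgeR adjusted p = 0.00134), and Cadm3 and Pcolce2 fell by 0.45 ± 0.07 and 0.51 ± 0.08 on the log2 scale. The genes called higher were Procr, of the protein C receptor, at 0.69 ± 0.11, Fbn1 at 0.41 ± 0.08 (4 of 6 fits without 1 library) and Col14a1 at 0.41 ± 0.09 (2 of 6 fits). Dpt was at 612, 648 and 609 CPM after OVA, against 746, 746 and 674 CPM in controls. Its groups did not overlap, as for 22.6% of all tested genes (4.9% were called as well and did not overlap), and it was not called (-0.20 ± 0.07, edgeR adjusted p = 0.178). Mfap5 was at 601 ± 34.4 CPM after OVA and 664 ± 56.6 CPM in controls (edgeR adjusted p = 0.379) and the surface marker Cd34 at 464 ± 14 CPM after OVA and 549.8 ± 39.5 CPM in controls (edgeR adjusted p = 0.104), and neither was called. Dpp4, at 11.5 ± 2.53 CPM after OVA and 12.6 ± 2.32 CPM in controls, Ly6a, at 1686 ± 79.2 CPM after OVA and 1761 ± 88.4 CPM in controls, and Cd248, at 75.7 ± 8.65 CPM after OVA and 67.6 ± 7.32 CPM in controls, were not called either (edgeR adjusted p = 0.831, 0.781 and 0.411).

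Gsn, of the actin-severing protein gelsolin (chr2:35256380-35307892), was the most abundant gene among the 12 largest falls. It was at 5188, 4770.5 and 4975 CPM after OVA, against 8306, 7749 and 7982 CPM in controls (-0.67 ± 0.06, edgeR adjusted p = 7.48e-05). Tsc22d3, which glucocorticoids induce, was at 115, 109.8 and 104 CPM after OVA, against 204, 176 and 206 CPM in controls (-0.82 ± 0.08, edgeR adjusted p = 0.000321). Angptl7, of a secreted matrix-associated protein, was at 528, 395 and 475 CPM after OVA, against 835, 859 and 694 CPM in controls (-0.76 ± 0.10, edgeR adjusted p = 0.00159), and Myoc, Cyp2f2 and Cpxm2 fell by 0.66 ± 0.10, 0.78 ± 0.12 and 0.61 ± 0.11 on the log2 scale. Aldh1a1, which makes retinoic acid, fell by 0.69 ± 0.08, and Cyp26a1, which degrades it, by 0.82 ± 0.18 (3 of 6 fits without 1 library, adjusted p up to 0.128). Of 26 adipogenic and lipid genes 1 was called higher and 3 lower (median -0.04), the falls including Apoe, of a lipid carrier, at 2598, 2623 and 2635 CPM after OVA, against 3843, 3805 and 4136 CPM in controls (-0.57 ± 0.06, edgeR adjusted p = 0.000593). Of 29 cell cycle genes 3 were called higher and 2 lower (median 0.17), with the inhibitor gene Cdkn1c lower by 0.71 ± 0.11. Over all tested genes 2.96% were called higher and 1.95% lower, so the counts of lipid and cell cycle genes say little about those lists.

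Of 31 genes raised by tissue dissociation, 0 were called higher and 14 lower, with a median log2 fold change of -0.23. Fos, of an immediate early transcription factor, was at 817, 811 and 915 CPM after OVA, against 1324, 1340.2 and 1429 CPM in controls (-0.67 ± 0.07, edgeR adjusted p = 0.000411). Jun fell by 0.47 ± 0.08, Junb by 0.44 ± 0.07, Atf3 by 0.48 ± 0.08 and Ier2 by 0.53 ± 0.08 on the log2 scale. Digestion of the tissue raises such genes, and its part in these values was not tested. Krt2, of a keratin of differentiated keratinocytes, had the largest fall of the genes named here, at 74, 89 and 110.3 CPM after OVA, against 413, 289 and 199 CPM in controls (-1.71 ± 0.22, edgeR adjusted p = 0.00134). Summed over 12 keratinocyte markers, all detected, members held 667 to 1404 CPM after OVA and 1649 to 2457 CPM in controls, and the part of keratinocyte RNA in the fall of Krt2 was not tested.

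Since the leading gene differed between groups, cells led by each gene were also fitted alone, an alternative added after seeing the data. Has1-led cells gave 65 genes called higher and 30 lower, and Ptx3-led cells 135 and 105. Tnc was at 386 ± 20.6 CPM after OVA and 156 ± 18 CPM in controls in Has1-led cells (1.33 ± 0.11, edgeR adjusted p = 0.00019) and at 635 ± 60.6 CPM after OVA and 286 ± 18.2 CPM in controls in Ptx3-led cells (1.14 ± 0.11, edgeR adjusted p = 0.000272). Cxcl5 was at 169 ± 67.6 CPM after OVA and 37.3 ± 33.5 CPM in controls in Has1-led cells (2.26 ± 0.44, edgeR adjusted p = 0.0284) and at 913 ± 179 CPM after OVA and 81.3 ± 64.3 CPM in controls in Ptx3-led cells (3.50 ± 0.39, edgeR adjusted p = 0.000367). Inhba, Il1rl1, Col12a1, Timp1, Lox, Gsn and Tsc22d3 were called in both kinds of cell with the direction seen in all members. Fos was called in neither. In Has1-led cells Fos was at 1205 ± 176 CPM after OVA and 1649 ± 42.4 CPM in controls (edgeR adjusted p = 0.0645). In Ptx3-led cells it was at 330 ± 111 CPM after OVA and 512 ± 207 CPM in controls (edgeR adjusted p = 0.202). Saa3 was not called in Has1-led or Ptx3-led cells (edgeR adjusted p = 0.851 and 0.167). The part of the shift in leading genes in the fall of Fos was not tested. Pi16-led cells numbered 97 to 118 per OVA-sensitized library and 104 to 131 per control library, and gave 6 genes called higher and 6 lower. Cxcl5, Tnc, Col12a1 and Emb were higher there, Tnc at 190.1 ± 46.1 CPM after OVA and 58.8 ± 3.56 CPM in controls (1.69 ± 0.19, edgeR adjusted p = 0.00283). Differences in response between these kinds of cell were not tested.

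The response was set against that of 672 fibroblasts led by Lrrc15, Mmp11, Tmem119 and Pth1r, in 1 model with library as a block. Of 8630 genes 38 (0.44%) differed in response, 12 (0.139%) with a higher log2 fold change in members and 26 (0.301%) with a lower one. Cxcl1 had the smallest adjusted p of these. It was at 5744 CPM after OVA and 5791 CPM in controls in members, and at 1646 CPM after OVA and 648 CPM in controls in the Lrrc15 and Mmp11 fibroblasts. The log2 fold change there was 1.37 ± 0.10, and the difference was -1.37 ± 0.12 (edgeR adjusted p = 3.18e-06). Plau, of urokinase, was at 167 CPM after OVA and 159 CPM in controls in members and at 79.1 CPM after OVA and 15.7 CPM in controls in the other class (difference -2.24 ± 0.25, edgeR adjusted p = 3.72e-05). Tgfbi, of a TGF-beta induced matrix protein, was at 228 CPM after OVA and 214 CPM in controls in members and at 238 CPM after OVA and 53.2 CPM in controls in the other class (difference -2.14 ± 0.23, edgeR adjusted p = 2.83e-05). Gpx3, of a secreted peroxidase, and Crabp1 differed by -3.61 ± 0.54 and -1.99 ± 0.42. Without control library 2 these differences were -4.46 and -3.07, for Gpx3 -2.90 without OVA-sensitized library 2, and for Crabp1 -1.37 and not called without control library 1.

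Tnc, Cthrc1, Il1rl1 and Cxcl2 rose in members and rose more in the Lrrc15 and Mmp11 fibroblasts. Tnc was at 303 CPM after OVA and 38.5 CPM in controls in that class, and the difference was -1.73 ± 0.23 (edgeR adjusted p = 0.000376). For Cthrc1 it was -2.12 ± 0.28, for Il1rl1 -1.25 ± 0.23 and for Cxcl2 -1.27 ± 0.27. The interferon-stimulated genes Bst2 and Ly6e differed by -1.16 ± 0.23 and -1.01 ± 0.20, and Tnfaip6 by -0.45 ± 0.10. In the other direction, Col12a1 was at 414 CPM after OVA and 327 CPM in controls in the Lrrc15 and Mmp11 fibroblasts, where its log2 fold change was 0.38 ± 0.16, and the difference was 1.09 ± 0.18 (edgeR adjusted p = 0.00351). Pakap and Igfbp2 differed by 1.11 ± 0.18 and 0.90 ± 0.20, and Mgst3 and Lgals3 by 0.80 ± 0.17 and 0.53 ± 0.09. The sums of that class rest on 115 to 134 cells per OVA-sensitized library and 76 to 118 per control library. Of the 17 named differences 9 to 17 were called without 1 library, fewest without control library 1, and those for Crabp1, Cxcl2, Il1rl1, Bst2, Ly6e, Tnfaip6, Igfbp2 and Mgst3 were not called in every such fit. Of the 17, 10 were called without cells that held leukocyte UMIs.

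**Figure D5:**
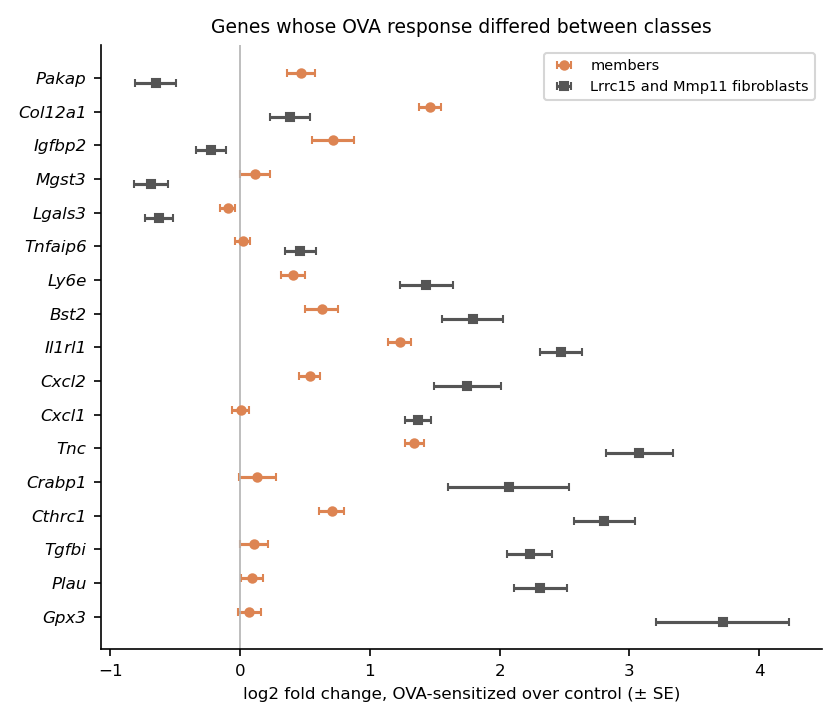
Points give the log2 fold change of OVA-sensitized over control libraries with its standard error in members (circles) and in Lrrc15 and Mmp11 fibroblasts (squares), for 17 named genes whose responses differed. Cxcl1 is at 0.00 in members and 1.37 in the other class, and Col12a1 at 1.46 and 0.38.

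Against 833 fibroblasts led by Wfdc12, Cpz, Rspo1 and Cyp26b1, 5 of 8630 genes (0.0579%) differed in response, 1 (0.0116%) with a higher and 4 (0.0463%) with a lower log2 fold change in members. They were H2-Aa (-4.91 ± 0.78), Il1b (-4.61 ± 0.82), Cd14 (-4.06 ± 0.65), Cst6 (-3.37 ± 0.57) and Hbb-bs (6.94 ± 1.13). The first 3 are known from myeloid cells, Cst6 from keratinocytes and Hbb-bs from red blood cells, and in members each was at 0.0521 times its level or less in another class of cells. Without the cells of highest doublet score, or without cells that held leukocyte UMIs, the difference for H2-Aa turned to 1.27 and 1.26. Without 1 library the differences ran over -5.61 to -4.26 for H2-Aa, -5.17 to -3.64 for Il1b, -4.94 to -2.38 for Cd14, -3.96 to -2.19 for Cst6 and 2.21 to 7.76 for Hbb-bs. Each lost its call in 1 to 4 of these 6 fits, Cd14 without control library 1 alone and Hbb-bs without control library 3 or OVA-sensitized library 1. DESeq2 called 0 genes in this comparison, where 186 had an unadjusted p under 0.05, against 523 with edgeR. So few calls do not show that the classes responded alike.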

How the data were processed

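UMI count matrices of 6 libraries, deposited by the authors, were used, with 32285 genes each. Per the file headers they were made with Cell Ranger 3.1.0, and per the submitters' processing notes with STAR and the mm10 build. The library kit was 10x Chromium 3′ v2, per the labels' protocols. No barcode had under 500 UMIs.

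Members, gene lists and tests were chosen with earlier results of these data known. UMI counts were summed over the members of each library and tested with edgeR 4.0.16 (R 4.3.3) by filterByExpr, TMM scaling and the quasi-likelihood test of 3 OVA-sensitized against 3 control libraries, with Benjamini-Hochberg adjustment over all tested genes. The genes of the rule were left out of the test. The same fit was run on the whole gate, and differences between classes were tested as interactions with library as a block. CPM is per 1000000 UMIs of the cells summed. Doublets were not removed: the threshold of Scrublet marked 0.026 to 0.304% of barcodes per library and so did not work, and an alternative left out the highest scores.

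Genes were named by rule: the 12 largest called changes each way without overlap at 50 CPM or more in the higher group, up to 6 called genes per list at 20 CPM or more, up to 6 differences each way between classes at 50 CPM or more in members, and a set of fixed genes, of which Lcn2 was too low to test and 1 is not reported here. Genes under 0.1 times their level in keratinocyte, endothelial or leukocyte-gated cells were left out, except from the lists. List genes whose call was lost without 1 library are mostly given by count only. The 5 genes named in the last comparison, and those with few UMIs in the closing section, were chosen after their values were seen. The tests were tried on simulated data. Alternatives were DESeq2 1.42.0, no TMM, no filter, each library left out, a replicate block, and stricter or altered rules for members.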

Additional observations from a re-analysis of the deposited data

Results flagged for a closer look

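Responses that differed between members and another class of fibroblast, by a test of the difference itself (edgeR, interaction with library as a block), are listed with the difference in log2 fold change, members minus the other class. Against the Lrrc15 and Mmp11 fibroblasts the response of members was lower for Tnc (-1.73), Cthrc1 (-2.12), Tgfbi (-2.14), Plau (-2.24), Gpx3 (-3.61), Crabp1 (-1.99), Cxcl1 (-1.37), Cxcl2 (-1.27), Il1rl1 (-1.25), Bst2 (-1.16), Ly6e (-1.01) and Tnfaip6 (-0.45). It was higher for Col12a1 (1.09), Igfbp2 (0.90), Pakap (1.11), Lgals3 (0.53) and Mgst3 (0.80). Against the Wfdc12, Cpz and Rspo1 fibroblasts it was lower for H2-Aa (-4.91), Il1b (-4.61), Cd14 (-4.06) and Cst6 (-3.37) and higher for Hbb-bs (6.94). DESeq2 called none of these 5, and the difference for H2-Aa turned to 1.27 without the cells of highest doublet score and to 1.26 without cells that held leukocyte UMIs.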

How the results depend on the processing

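With DESeq2, 197 genes were called higher and 120 lower in members, and 389 and 282 over the gate. Without 1 library, the calls ran over 162 to 324 higher and 86 to 219 lower in members and 405 to 593 and 306 to 510 over the gate, where fewer libraries were fitted. Cells led by 1 gene gave 65 higher and 30 lower (Has1), 135 and 105 (Ptx3), and 6 and 6 (Pi16), from fewer cells. The count of genes that differed from the Lrrc15 and Mmp11 fibroblasts was 196 without a filter on low counts, 72 with a B sum of at least 5, and 26 to 68 without 1 library, with the highest count without OVA-sensitized library 3. Against the Wfdc12, Cpz and Rspo1 fibroblasts it was 0 with DESeq2, 78 without the filter, 8 with a B sum of at least 5, 2 without cells that held leukocyte UMIs, 8 with C3 out of the B sum, and 3 to 11 without 1 library. The share of members was higher after OVA by 9.93 percentage points of the gate, 7.15 after thinning, 6.32 of all kept barcodes and 8.54 to 10.7 without 1 library.

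Of 103 genes named in members, 95 kept their direction and side of the threshold with DESeq2, 89 to 98 without 1 library and 96 to 102 under the other settings applied to all members. The direction turned for some single genes, and the cause was not tested. In Pi16-led cells the log2 fold changes were -0.24 for Col7a1, -0.51 for Cthrc1, -1.11 for Acta2, -0.77 for Il33, -0.57 for Fgf7, -0.21 for Hif1a, -0.17 for Sfrp1, -0.12 for Il4ra and -0.55 for Il13ra1. In Ptx3-led cells they were 0.51 for Dpp4, 0.073 for Mfap5, -0.38 for Cxcl12, -0.28 for Cxcl1, -0.20 for Tnfaip6 and -0.14 for Il6. Genes that were not called and lay near 0 changed sign with small steps. Cxcl1 was at -0.012 without TMM, -0.061 with a B sum of at least 5, -0.0076 with at most 10% mitochondrial UMIs, -0.014 with C3 out of the B sum, -0.0051 in Has1-led cells and -0.026 to 0.055 without 1 library. Cxcl12 and Tnfaip6 were at -0.017 and -0.039 with a B sum of at least 5, and ran over -0.058 to 0.088 and -0.016 to 0.039 without 1 library. In Has1-led cells Ly6a, Cd248 and Il13ra1 were at 0.028, -0.0087 and -0.033, and without 1 library Dpp4 and Ly6a ran over -0.29 to 0.032 and -0.098 to 0.0022. Has1 over the gate was at -0.017 without TMM and ran over -0.11 to 0.0996 without 1 library. The difference for H2-Aa was 1.27 without the highest doublet scores and 1.26 without cells that held leukocyte UMIs.

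With a replicate block, 365 genes were called higher and 234 lower in members, and 760 and 591 over the gate. The deviations of same-numbered libraries correlated by 0.06, 0.09 and 0.03 in members and 0.06, 0.15 and -0.06 over the gate. Each member library correlated best with its own number, a hint from the data and not from the design, but no member pair passed 0.1, so the libraries were taken to share only a number. Depth limits genes with few UMIs, and 3 libraries a group limit the precision of all.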

Other observations

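Some genes with few UMIs, chosen after their values were seen, were found almost only in OVA-sensitized members. Reg3g, of an antimicrobial lectin known from epithelia, had 288, 236 and 24 UMIs in the OVA-sensitized libraries, against 5, 1 and 0 in the control libraries. These came from 18, 11 and 6 members after OVA, against 2, 1 and 0 in controls, and the single richest cell gave 46.2, 64.4 and 50% of the UMIs of its OVA-sensitized library. Its relative Reg1 had 84, 202 and 20 UMIs in 18, 14 and 10 members after OVA and none in controls, which makes it higher by a factor of at least 64.7 if the control members are given 3 UMIs in all. The bound was 33.9 without OVA-sensitized library 2, 68.5 without library 1 and 91 without library 3, and UMIs of one cell are not independent. A few cells carried the Reg genes.

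Tnfsf11, of the osteoclast cytokine RANKL, had 63, 54 and 74 UMIs after OVA, against 2, 2 and 1 in controls. Grem1, of a BMP antagonist, had 80, 29 and 69 UMIs after OVA, against 5, 4 and 1 in controls, and Col6a5 had 62, 35 and 82 against 2, 3 and 0. Hp, of haptoglobin, had 39, 31 and 60 UMIs after OVA, against 0, 1 and 1 in controls, a CPM ratio of 41.2 with a 95% counting interval of 11.2 to 344. That interval takes UMIs as independent and holds no spread between cells or libraries. The Hp UMIs after OVA came from 11, 10 and 13 members, and the single richest cell gave 43.6, 35.5 and 33.3% of those of its library. Leukocyte-gated cells held Hp at 23.7 CPM after OVA and 6.13 CPM in controls, against 8.95 and 0.217 CPM in pooled members.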
